A study of Mus musculus with 32 samples.

Results

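The mRNAs described here encode enzymes of glycolysis from aldolase to enolase, and lactate dehydrogenase, measured separately in the dendrites and the soma of single mouse neurons. The members were taken by name (Aldoa, Aldoc, Tpi1, Gapdh, Pgk1, Pgam1, Eno1, Eno2, Ldha and Ldhb), which gave 10 of the 44081 genes in the 3′UTR count table and 35 of the 74532 3′ end features. All 10 passed the filter on low counts. The neurons came from hippocampi of C57BL/6 embryos (embryonic day 18) and were grown for 15 days without any treatment, so every library shares 1 strain and 1 basal culture state. Per the paper they came from more than 1 culture and collection day, and the effect of culture or day was not tested. The processes of each of 16 cells were severed and aspirated into 1 tube and the cell body into another, which gave 16 dendrite and 16 soma libraries paired by neuron. Neurons 1 to 4 had 3 rounds of aRNA amplification and the other 12 had 2 rounds.

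Glycolysis splits glucose into pyruvate and yields ATP in the cytosol without oxygen. Its enzymes are used in every cell, and several of them occur as isoenzymes with a tissue preference: Eno2 is the enolase of neurons, Eno1 the widespread form, Aldoc is the aldolase best known from astrocytes and some neuron types, and Ldha and Ldhb are the muscle-type and heart-type subunits of lactate dehydrogenase. Synapses use much ATP, and glycolytic proteins are found in axons and dendrites as well as around the nucleus. An mRNA present in a dendrite could be translated there.

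Reads of this protocol gather at the end of the transcript, so the counts rest on the 3′UTR. The GENCODE annotation (GRCm38, the same assembly as mm10) gave the members 3′UTRs of 178 to 1427 nt (median 453), against a median of 1230 nt over the 9021 tested genes with such an annotation, and 8 of the 10 lay below that median. The last 40 bases of the annotated transcript held the poly(A) signal AATAAA in 8 members and its variant ATTAAA in Eno2, and neither in Tpi1. Over 20700 genes searched in the same window, on the transcript strand alone, AATAAA stood in 59.8% and ATTAAA in 15.8%. The transcript ends of the isoenzyme pairs are printed here because the comparisons within these pairs rest on reads from them. Each run lies in the 3′UTR part of the last exon, 5′ to 3′ on the transcript strand, with the poly(A) signal in capitals.
Aldoa, chr7:126795235-126795264, minus strand: ccactgccAATAAAcaactatttaaggggg
Aldoc, chr11:78327736-78327765, plus strand: ttaactaaAATAAAattaatcacatagtag
Eno1, chr4:150248845-150248874, plus strand: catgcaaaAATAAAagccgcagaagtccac
Eno2, chr6:124760055-124760084, minus strand: gagtgctgggATTAAAagcttgtaccacca
Ldha, chr7:46855598-46855627, plus strand: tgtcatgccaAATAAAaccttgaacagtga
Ldhb, chr6:142490251-142490280, minus strand: cctgatcaAATAAAgttagcaattgcagca

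Some members share their ends with near-identical copies, among which uniquely mapped reads could be split or lost. Compared with all other GENCODE transcripts (at least 95% identity over at least 75 bases of the last 500), Gapdh matched 89 other genes and Eno1 matched 4, among them Eno1b with 99.4% identity over 497 bases. Pgk1 matched 3 genes and Ldhb 1, and the other 6 members matched none. Reads on the matching genes amounted to 7.24% of the Gapdh reads, 14.1% of the Eno1 reads, 10.7% of the Pgk1 reads and 0.921% of the Ldhb reads. The levels of Gapdh, Pgk1 and Eno1 are therefore uncertain, and Aldoa, Aldoc, Tpi1, Pgam1, Eno2 and Ldha carry no such doubt from this search.

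Dendrite libraries held 646521 to 6954420 reads on 3′UTRs (median 1605714) and soma libraries 925525 to 21169974 (median 6165691). Mitochondrially encoded genes took 2.39% to 35.8% of these reads in dendrites (median 13.5%) and 0.277% to 8.12% in somas (median 1.05%). The dendrites of neurons 15 and 16 stood apart, with 1570 and 2485 genes at 10 or more reads against 3794 to 9871 in the other 14, and with the highest mitochondrial shares (35.8% and 32.4%). Some of the results that rest on them are therefore also given without either or both of them. All 6 neuronal markers had reads in both compartments, with a summed level of 2155 to 10024 CPM (reads scaled to a common library size, with edgeR's TMM factors) in dendrites. The 3 GABAergic markers summed to 1126 to 19881 CPM in somas and the 5 glutamatergic markers to 26.9 to 1929 CPM. Markers of microglia summed to 0 to 386 CPM in dendrites, those of oligodendrocytes to 0 to 221 CPM and those of endothelial cells to 0 to 44.5 CPM, with Cldn5 at 0 in all libraries. Reads carry no molecular identifiers, so counting error describes reads and not molecules.

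Taken as a group, the 10 mRNAs made up a smaller share of the dendrite reads than of the soma reads. Their share was 0.0728% to 0.561% of the 3′UTR reads in dendrites (median 0.232%) and 0.0871% to 0.746% in somas (median 0.452%). The ranges overlap, and within neurons the share was lower in the dendrites of 15 of 16 cells, neuron 2 being the exception. Ldhb (196827 reads over all libraries) and Aldoa (192047) weigh most in this share, ahead of Eno2 (68504), so it describes these more than the others. The dendrite mean was 0.259% ± 0.143 (SD, n = 16) and the soma mean 0.448% ± 0.175 (SD, n = 16), a description without a test. With the mitochondrially encoded genes left out of the total, which move in the other direction between the compartments, the means were 0.2999% ± 0.154 (SD, n = 16) and 0.458% ± 0.182 (SD, n = 16), again lower in the dendrites of 15 neurons. Without neurons 15 and 16 the shares of all 3′UTR reads were 0.278% ± 0.142 and 0.439% ± 0.186 (SD, n = 14), lower in the dendrites of 13 neurons.

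No member passed the test between dendrites and somas. In edgeR's quasi-likelihood test with the neuron as blocking factor, at a limit of 0.05 on the adjusted p, 0 of the 10 were called higher in dendrites, where 0.827% of the 10880 genes tested were called, and 0 were called higher in somas, where 5.71% were called. At an unadjusted p under 0.05, 2 members (Pgk1 and Eno2) were lower in dendrites, against 26.7% of all genes, and 0 were higher, against 3.55%. That count was 1 when neuron 1, 6, 12, 13, 15 or 16 was left out, and 5 (Gapdh, Pgk1, Aldoa, Eno2 and Tpi1) without both neurons 15 and 16, against 19.4% of all genes. The fitted log2 difference of dendrites over somas was below 0 for 9 of the 10, with a median of -0.99 over the members, and the exception was Aldoc. Over all genes tested the median was -1.49, and 8 members lay above it (Pgk1 and Eno2 did not). This position turned with the fit: 1 member lay above the median gene without the neuron as a block (median -0.71 over the members and -0.22 over all genes) and 1 without the filter on low counts (-1.09 and -0.17). Among the 3478 genes with at least 10 reads in at least 24 libraries, the median was -1.02, and 4 of the 9 members in that set lay above it.

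The calls turned on the test and the scaling. DESeq2 with the same pairing called 7 members lower in dendrites (Gapdh, Pgk1, Aldoa, Eno1, Eno2, Tpi1 and Pgam1), while it called 46.2% of all genes in that direction, and 0 members higher in dendrites, against 4.26% of all genes. DESeq2's size factors inside edgeR gave 1 call, Eno2 lower in dendrites, against 9.26% of all genes. With the dendrite libraries rescaled so that the median gene lay near 0, no member was called and 8 of the 10 differences were above 0, while the calls over all genes were 5.04% with dendrites higher and 0.846% with the soma higher. The direction of every member but Aldoc, Pgk1 and Eno2 therefore depended on the scaling. Where reads are scaled to their own library, less of a given RNA and more of the others cannot be told apart. Per the labels, spike-in RNA was added for neurons 3 to 16, and a scaling by it was not tested.

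**Figure D1:**
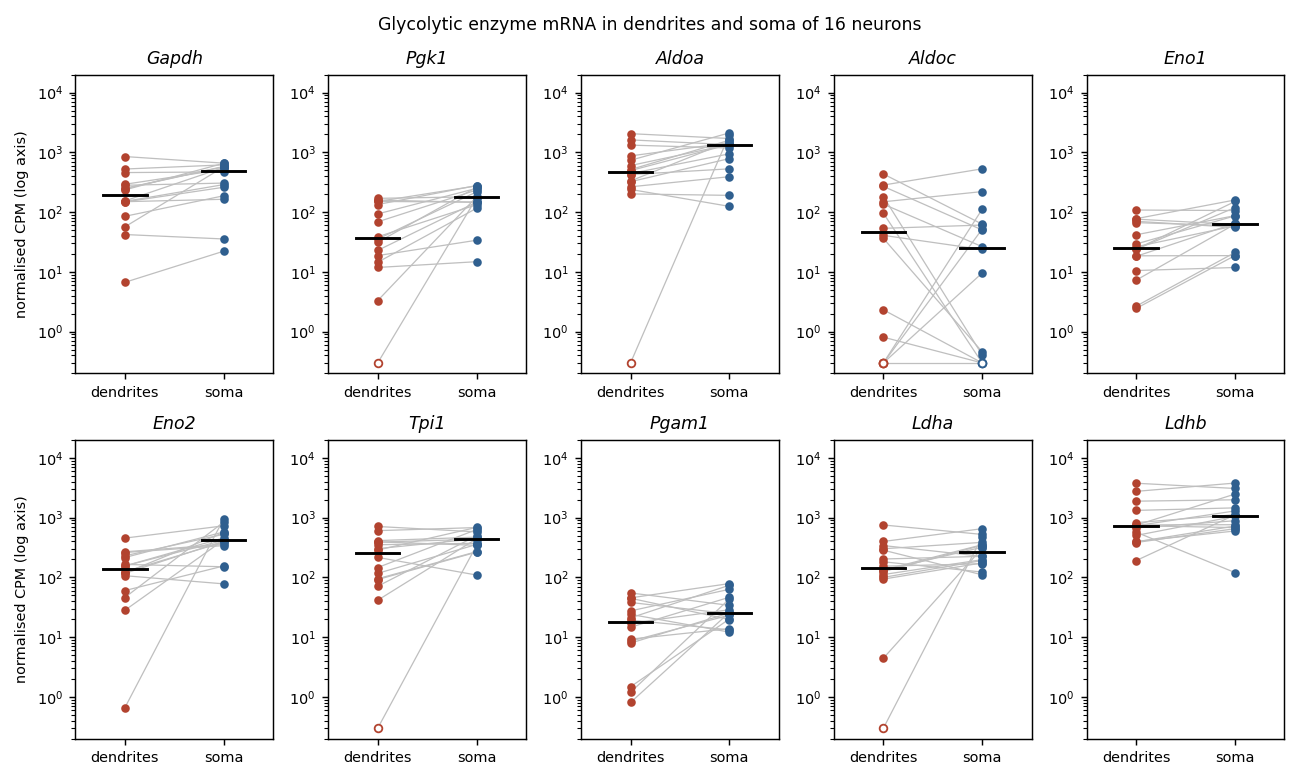
Level of each mRNA in the dendrites (left) and the soma (right) of 16 neurons, in TMM-scaled CPM on a log axis; grey lines join the compartments of a neuron, black bars are medians and open circles on the lower edge are libraries with 0 reads. Aldoa and Ldhb sit highest, Pgam1 lowest among the enzymes found in every library, and Aldoc spans the range from 0 to 529.6 CPM.

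Aldolase cleaves fructose-1,6-bisphosphate into both triose phosphates. Aldoa, the widespread form, had 0, 467.8 and 2051 CPM in dendrites (lowest, median, highest) and 124.7, 1346 and 2110 CPM in somas. The ranges overlap, and the soma of neuron 1 held less than the median dendrite library. The soma was higher in 11 of 16 neurons and the fitted log2 difference was -0.90 ± 0.52 (SE, adjusted p = 0.230 with edgeR). This Aldoa difference ran from -0.98 to -0.43 over the neurons left out in turn, with -0.43 without neuron 15. Aldoc had 0, 47.2 and 434 CPM in dendrites and 0, 25.0 and 529.6 CPM in somas. It was the only member with a fitted difference above 0, at 1.47 ± 1.30 (SE, adjusted p = 0.423 with edgeR), and the dendrites were higher in 9 neurons and the soma in 6.

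Aldoc was close to present or absent in single libraries. It had reads in 12 dendrites and 13 somas, with 10 or more reads in 10 of each. The dendrites of neuron 12 held 160 Aldoc reads and its soma 0, which is at least 58.4-fold higher than the level that 3 reads would give in that soma library. Neuron 9 went the other way, with 0 reads in the dendrites and 1130 in the soma, at least 109-fold lower in the dendrites by the same floor. In neuron 8 the dendrites held 340 reads and the soma 2. The dendritic fraction, the dendrite CPM over the sum of both, was under 0.1 in 3 neurons and over 0.9 in 3 of the 13 neurons with at least 10 Aldoc reads. No other member had a fraction over 0.9 in any neuron.

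Because Aldoc is also an astrocyte mRNA, the 8 other astrocyte markers are given beside it. All 8 had reads in each compartment, and they summed to 0 to 1676 CPM in dendrites (median 249) and 0.541 to 532.9 CPM in somas (median 192). Gfap reached at most 20.9 CPM, in the dendrites of neuron 5. Slc1a2 alone took most of the sum in most libraries, such as 1012 of 1676 CPM in the dendrites of neuron 8. The exceptions were the dendrites of neurons 1, 2 and 12, the somas of neurons 1, 4 and 14, and the dendrites of neuron 15, where the sum was 0. Across the 16 dendrite libraries, Spearman's rho of Aldoc with this sum was 0.262, and across the 16 somas it was 0.0973, both as descriptions of libraries that also differ in depth. The dendrites of neuron 8 held the highest sum, 1676 CPM, with 182 CPM of Aldoc, against 353 CPM and 0.409 CPM in the soma. The dendrites of neurons 6 and 14 were likewise above their somas in both (907 and 703 CPM of the markers, 136 and 434 CPM of Aldoc). In neuron 3 the dendrites were higher in the markers (1193 against 532.9 CPM) and the soma in Aldoc (220.4 against 149 CPM). The dendrites of neuron 12 held 95.7 CPM of Aldoc and 4.19 CPM of the markers, and those of neuron 9 held 0 and 709 CPM. The part of astrocyte RNA in the Aldoc values was not tested.

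Triose phosphate isomerase joins the products of aldolase into 1 pool. Tpi1 had 0, 251 and 710.5 CPM in dendrites and 109.6, 438 and 685 CPM in somas. The ranges overlap, the soma was higher in 13 of 16 neurons, and the fitted log2 difference was -1.12 ± 0.63 (SE, adjusted p = 0.212 with edgeR). It lay between -1.26 and -0.65 when each neuron was left out in turn, and was -0.65 without neuron 15.

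Gapdh, which makes the first high-energy phosphate of the pathway and is a common reference gene, had 6.69, 195 and 849.8 CPM in dendrites and 22.2, 495 and 659 CPM in somas. The highest value of all lay in a dendrite library, that of neuron 15, in which 4 other members had 0 reads. The soma was higher in 14 of 16 neurons, with a fitted log2 difference of -0.88 ± 0.54 (SE, adjusted p = 0.252 with edgeR). Leaving out each neuron in turn gave -0.95 to -0.45 for Gapdh, the latter without neuron 13. Pgk1, which passes that phosphate to ADP, had 0, 37.0 and 169.9 CPM in dendrites and 14.8, 176 and 278 CPM in somas. Its fitted difference of -1.81 ± 0.80 (SE, adjusted p = 0.124 with edgeR) was the lowest of the members, and the soma was higher in 14 neurons. Pgam1, which moves the phosphate within phosphoglycerate, was scarce, with 0.809, 18.2 and 55.0 CPM in dendrites and 12.2, 25.7 and 78.8 CPM in somas, and its difference was -1.08 ± 0.97 (SE, adjusted p = 0.431 with edgeR). The Pgam1 soma was higher in 11 neurons. Its difference ran from -1.23 to -0.56 over the neurons left out in turn, with -0.56 without neuron 12.

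Enolase makes phosphoenolpyruvate. Eno2, the neuronal form, had 0.662, 139.9 and 454 CPM in dendrites and 78.0, 419.9 and 956 CPM in somas. The dendrite median lay well under the soma median although the ranges overlap, and the soma was higher in 14 of 16 neurons. The fitted log2 difference of -1.62 ± 0.64 (SE) had the smallest p of the members (adjusted p = 0.0937 with edgeR), and with DESeq2's size factors in edgeR it was -1.91 (adjusted p = 0.0456). Eno1 had 2.45, 25.1 and 108 CPM in dendrites and 11.8, 62.6 and 159.5 CPM in somas, with a fitted difference of -1.22 ± 0.82 (SE, adjusted p = 0.294 with edgeR).

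Lactate dehydrogenase converts pyruvate and lactate into each other. Ldhb had 191, 733 and 3758 CPM in dendrites and 120.4, 1082 and 3783 CPM in somas, and it was the only member with at least 10 reads in all 32 libraries. The ranges nearly coincide, although the soma was higher in 13 of 16 neurons. The fitted log2 difference of -0.47 ± 0.41 (SE, adjusted p = 0.416 with edgeR) was the closest to 0 of the members. With each neuron left out in turn it ran from -0.61 to -0.027, the latter without neuron 12. Ldha had 0, 143 and 753 CPM in dendrites and 110.4, 266 and 653 CPM in somas, with a difference of -0.81 ± 0.68 (SE, adjusted p = 0.402 with edgeR) and a higher soma in 12 neurons. That of Ldha ran from -0.96 to -0.35 over the neurons left out in turn, with -0.35 without neuron 15 and -0.36 without neuron 16. It was -0.45 without neurons 15 and 16.

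**Figure D2:**
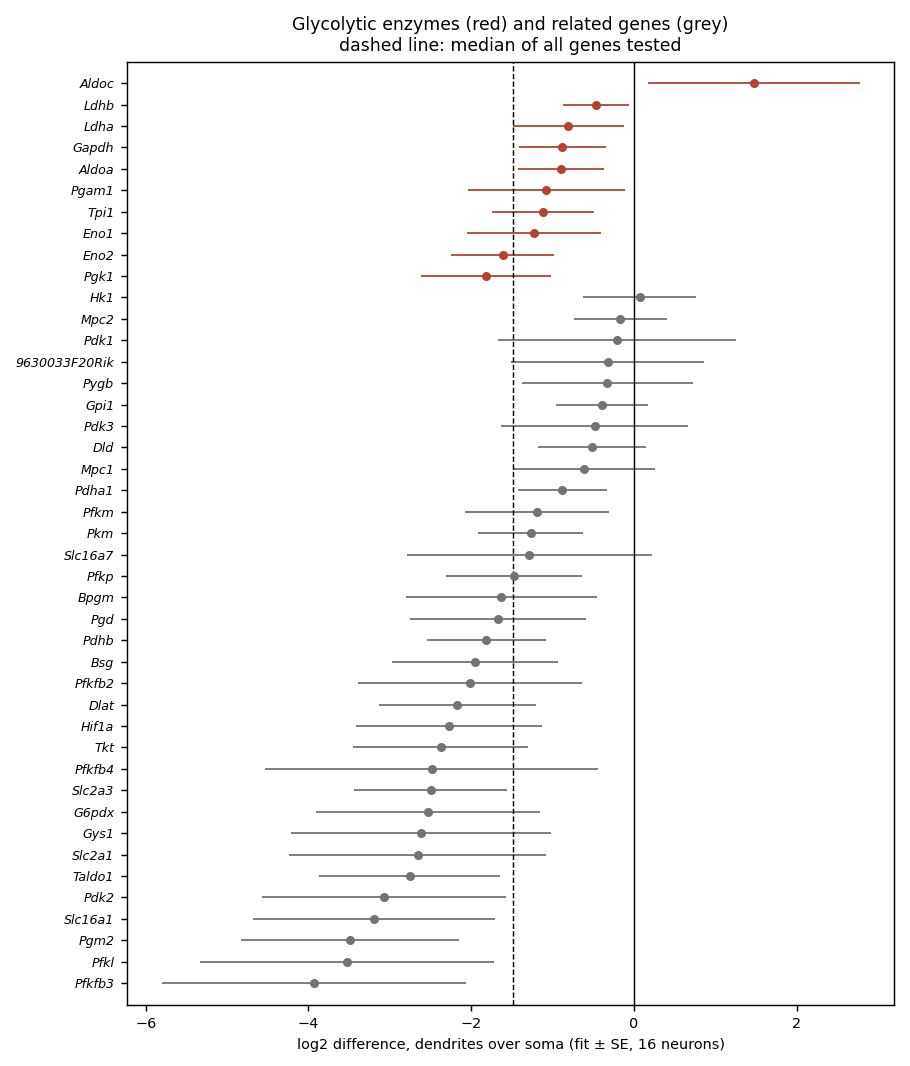
Fitted log2 difference of dendrites over somas (points, with SE as bars) of the members in red and of 33 related genes in grey, over 16 neurons; the solid line is 0 and the dashed line the median of all genes tested, -1.49. Aldoc alone among the members lies above 0, at 1.47, and Pgk1 is lowest, at -1.81.

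Seen neuron by neuron, the members did not move as a block. Between 0 and 7 of the 10 were higher in the dendrites of a neuron, with 7 in neuron 2 and 0 in neuron 7. The log2 ratios of CPM + 1 gave 45 pairs of members, whose Spearman's rho over the 16 neurons had a median of 0.244 and ran from -0.30 to 0.835, with 40 above 0. The closest pair was Eno2 with Pgam1 (0.835). Compared with the mean of the other 9 members, Eno2 was most alike (0.806), and Ldhb (0.129) and Aldoc (0.138) least. These ratios share the libraries' scaling and depth.

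Single dendrites lacked an mRNA that was abundant in their own soma. In neuron 15 the dendrites held 0 reads of Aldoa, Tpi1 and Ldha, while the soma held 18123, 3158 and 4387. Against a floor of 3 reads in that dendrite library, the levels were at least 988-fold, 172-fold and 239-fold lower than in the soma. The same dendrite library held 1995 Ldhb reads and 849.8 CPM of Gapdh, so some members were at 0 and others were not. In neuron 16 the dendrites held 0 Pgk1 reads and the soma 1889, at least 77.6-fold lower. These were the libraries with the fewest detected genes, and the part of the amplification in these zeros was not tested.

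**Figure D3:**
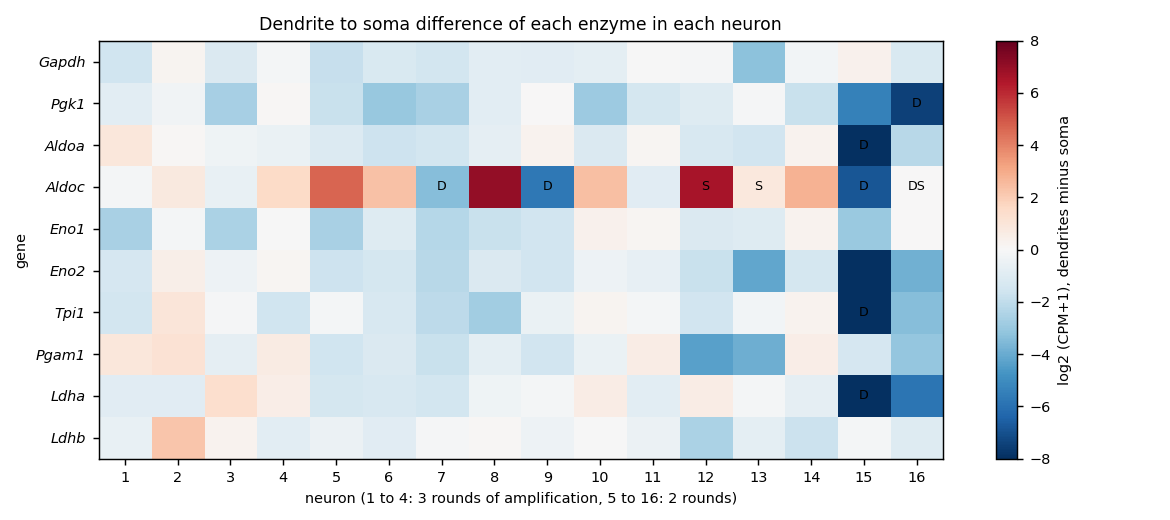
Log2 ratio of CPM + 1, dendrites minus soma, of each member (rows) in each neuron (columns); red is higher in dendrites, blue higher in the soma, colours stop at 8 on either side, and D or S marks 0 reads in that compartment. The dark blue cells gather in neurons 15 and 16, and Aldoc alternates between red and blue.

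The spread of the dendritic fraction over neurons was smaller for 9 members than for most genes of like detection. Its SD ran from 0.131 (Gapdh) to 0.224 (Pgam1) in these 9, against a median SD of 0.270 over the 3478 genes with at least 10 reads in at least 24 libraries. The mean fraction of the 9 ran from 0.264 (Pgk1) to 0.426 (Ldhb), against a median of 0.386 over those genes. Aldoc had too few libraries with 10 reads to be in that set, and its fraction was 0.569 ± 0.392 (SD, n = 13). The members include highly counted genes, whose fractions carry less counting error.

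A ratio of isoenzymes within a library does not use the scaling between libraries. Where one of them has 0 reads, the ratio is set by the reads of the other and so by depth. In neurons, Aldoc accounted for 17.3% of the aldolase reads in the median dendrite library (0% to 30.9%, n = 15) and 2.60% in the median soma (0% to 32.8%, n = 16). The log2 ratio of Aldoa to Aldoc (0.5 added to each count) was 0, 2.25 and 14.3 in dendrites and 1.03, 5.33 and 15.8 in somas. The ranges overlap, and the ratio was lower in the dendrites of 11 of 16 neurons. In neurons 12, 13, 15 and 16, which are among these 11, the difference rests on depth or on the added 0.5. The dendrites of neuron 15 had 0 reads of both genes, and neuron 16 had 0 Aldoc reads in both compartments. Neuron 13 had 1 Aldoc read in the dendrites and 0 in the soma, and neuron 12 had 0 in the soma (difference -9.74). In the other direction, neurons 7 and 9 had 0 Aldoc reads in the dendrites, so their differences (2.88 and 9.61) rest on the same. The paired difference of -2.61 ± 4.91 (SD, n = 16) did not pass (exact sign-flip permutation p of 0.0517, two-sided, and 0.155 after adjustment over the 3 ratios). Without neuron 15 it was -2.51 (exact permutation test, adjusted p = 0.230), and without neurons 15 and 16 it was -2.32 (exact permutation test, adjusted p = 0.357). In the 10 neurons with reads of both genes in both compartments, a choice made after seeing the data that goes by the Aldoc reads themselves, it was -2.87 ± 3.42 (SD, n = 10), lower in 7 (exact permutation test, adjusted p = 0.0820). Adding 5 in place of 0.5, which leaves the part of depth in place, gave -2.47 (exact permutation test, adjusted p = 0.0471, lower in 12 of 16 neurons). Of the neurons left out in turn, neuron 9 alone brought the test past the limit (-3.43, exact permutation test, adjusted p = 0.0128). It is the neuron with the largest difference in the other direction (9.61), and the other 15 gave adjusted p of 0.103 to 0.270 by the same permutation test.

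For enolase, Eno2 took 83.5% of the reads in the median dendrite library (8.33% to 99.1%) and 87.0% in the median soma (72.2% to 95%). The log2 ratio of Eno1 to Eno2 was -6.55, -2.32 and 2.94 in dendrites and -4.23, -2.72 and -1.37 in somas, so the somas lay within the range of the dendrites. It was higher in the dendrites of 8 neurons and lower in 8, and the difference of 0.76 ± 2.26 (SD, n = 16) did not pass (exact sign-flip permutation p = 0.208, adjusted 0.310). Without neurons 15 and 16, the difference was 0.10 ± 1.34 (SD, n = 14). It was 1.38 ± 2.25 (SD, n = 12) with 2 rounds and -1.09 ± 0.96 (SD, n = 4) with 3 rounds, where it was below 0 in 4 of 4 neurons, and these 2 groups differed with an exact permutation p of 0.0489 over 1820 splits, which became 0.147 over the 3 ratios and so did not pass. With 4 neurons the smallest p of the sign-flip test is 0.125.

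For lactate dehydrogenase, Ldhb took 81.2% of the reads in the median dendrite library (49.3% to 100%) and 77.3% in the median soma (38.6% to 96.5%). The log2 ratio of Ldha to Ldhb was -11.96, -2.11 and 0.04 in dendrites and -4.80, -1.76 and 0.67 in somas. The groups overlap, and the difference of -0.89 ± 3.13 (SD, n = 16) was above 0 in 7 neurons and below in 9 (exact sign-flip permutation p = 0.310, adjusted 0.310). It rested on the dendrites of neurons 15 and 16, without which it was 0.07 ± 1.46 (SD, n = 14; exact sign-flip permutation p = 0.855).

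**Figure D4:**
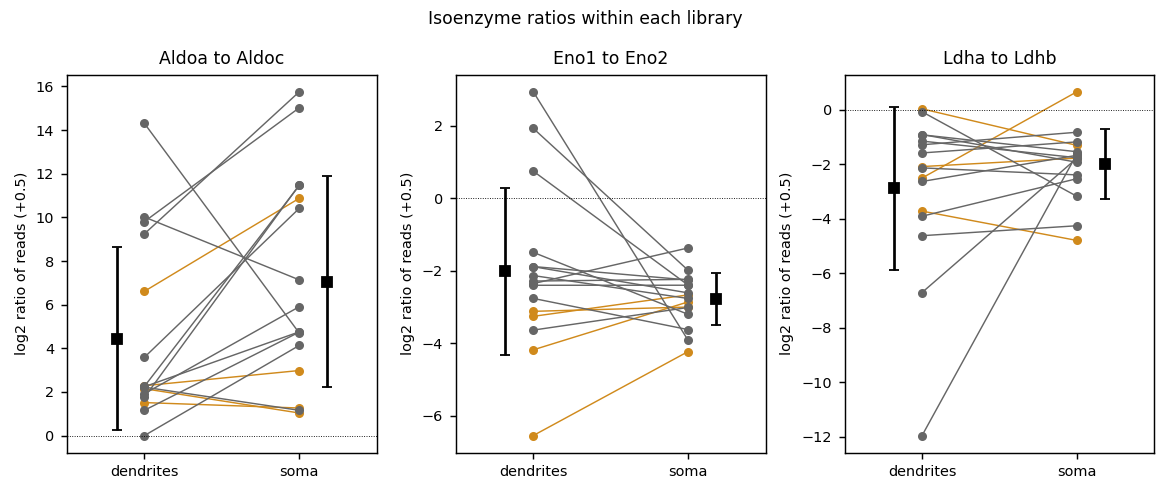
Log2 ratio of the reads of both isoenzymes (0.5 added) in the dendrites and the soma of each neuron, joined by lines (orange, 3 rounds of amplification; grey, 2 rounds), with mean and SD as black squares and bars. The ratio Aldoa to Aldoc has the widest spread in both compartments, and single grey lines, neurons 15 and 16 among them, carry the mean difference of Ldha to Ldhb.

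None of the members differed by rounds of amplification in the compartment test. In a test of the interaction of compartment and rounds with edgeR, 0 of the 10 and 0.0% of 10880 genes passed, and at an unadjusted p under 0.05 none of the members did. DESeq2 called 0.572% of the genes for which it gave an adjusted p, and 0 members.

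Each member was read almost wholly from a single 3′ end. The isoform features cover the last 500 nt of an end, and of the 35 features of the members the leading one took from 93.5% (Eno1) to 100% (Pgam1 and Ldhb) of a gene's end reads summed over libraries. Among these features the median level in somas was highest for Aldoa (1605 CPM of the end reads), followed by Ldhb (1330.0), Gapdh (528), Tpi1 (513), Eno2 (493), Ldha (333), Pgk1 (196), Eno1 (63.8), Pgam1 (21.3) and Aldoc (21.1). In dendrites the order of the medians was Ldhb (760.4), Aldoa (612), Tpi1 (296), Gapdh (233), Ldha (191), Eno2 (156), Pgk1 (49.1), Aldoc (48.0), Eno1 (26.5) and Pgam1 (14.2). Neighbours in either order have overlapping ranges, and close ones such as Gapdh, Tpi1 and Eno2 in somas differ by far less than the spread over neurons. The annotated 3′UTR is shorter than 500 nt in 6 members, so equal feature length is an approximation.

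**Figure D5:**
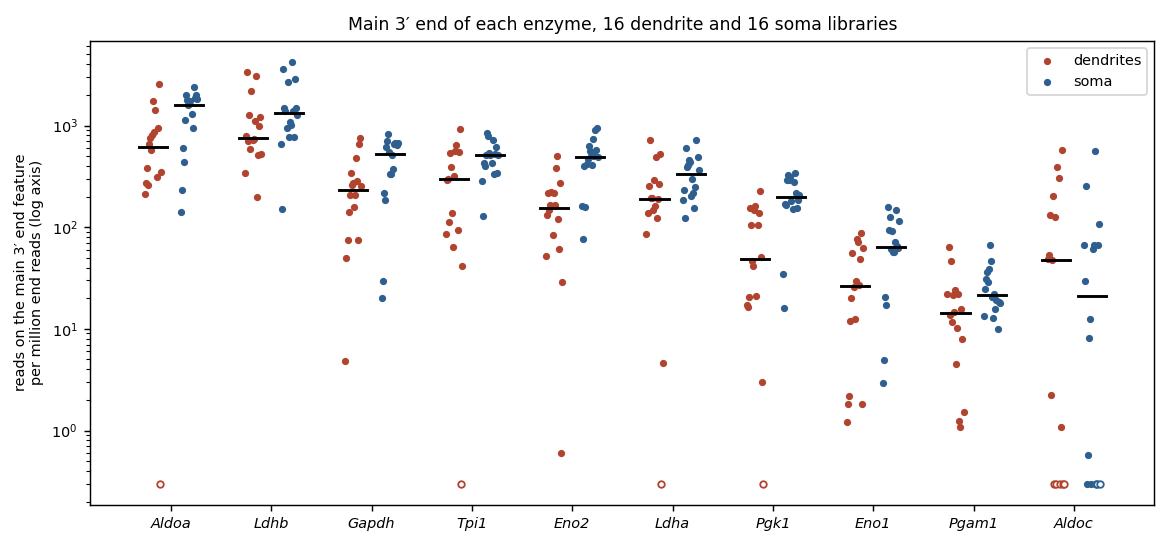
Reads on the leading 3′ end feature of each member, in CPM of the end reads on a log axis, in 16 dendrite (red) and 16 soma (blue) libraries; black bars are medians and open circles are libraries with 0 reads. Genes are ordered by the soma median, from Aldoa at 1605 to Aldoc at 21.1.

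No member passed the test for a change of 3′ end between compartments. The share of reads on the second of the 2 leading ends was compared by an exact signed-rank test in neurons with at least 10 reads on them in both compartments, which 8 members allowed. After adjustment over the 3522 genes tested, 0 members and 0.0% of all genes passed. At the study's unadjusted limit of 0.1, 2 members lay under it (Pgk1 and Ldha), against 8.4% of all genes. In Pgk1 the minor end had 0 reads in every dendrite library and up to 2.34% of the reads in a soma, lower in the dendrites of 12 of 13 neurons (exact signed-rank p = 0.000488, adjusted 0.287). The 2641 dendrite reads on both ends with 0 on the minor one allow a share of up to 0.114%, and in somas the minor end had 95 of 20593 reads, 0.461% (95% Wilson interval 0.378% to 0.564%), limits that cover counting error only. Single dendrite libraries held 0 to 946 reads on the leading end, too few in most to show a share of this size. In Ldha the minor end had 0.259% ± 0.930 of the dendrite reads and 0.905% ± 1.40 of the soma reads (SD, n = 14 neurons) (exact signed-rank p = 0.0977, adjusted 1).

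The leading end did not lead in every library. The second end of Aldoc took 95.8% of all its end reads, and its first end 2.46%. In the dendrites of neuron 12 all 160 reads lay on the first end and 0 on the second. In the soma of neuron 6, 84 reads lay on the first end and 28 on the second, while the dendrites of the same neuron held 0 and 141. The 7 neurons with enough Aldoc reads in both compartments gave no difference that passed (exact signed-rank p = 0.75). The leading end of Eno1 fell to 12.8% of its reads in the soma of neuron 1, where 34 reads lay on the fifth end and 5 on the first. In the dendrites of neuron 15 it fell to 27.3%, with only 3 reads on the first end, and the third end took 72.7%. Among libraries with at least 10 reads, the second end took up to 31.0% of the Eno2 reads in a dendrite and up to 25% of the Gapdh reads in a soma. These were 35 reads beside 74 on the first end (Eno2, neuron 7) and 8 beside 24 (Gapdh, neuron 2).

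The wider pathway showed no call either. Of 49 genes for other steps, regulators, transporters and branches, 33 were tested, and 0 passed in either direction with edgeR, against 5.71% of all genes lower and 0.827% higher in dendrites. DESeq2 called 21 lower and 0 higher, against 46.2% and 4.26% of all genes. At an unadjusted p under 0.05, 9 were lower in dendrites and 0 higher, against 26.7% and 3.55% of all genes, and the median log2 difference was -1.81, with 14 of 33 above the median of all genes. The 7 tested genes for other glycolytic steps had a median of -1.27, with 5 above the median gene, and ran from Hk1 (0.07 ± 0.70, SE), a hexokinase, to Pfkl (-3.53 ± 1.81, SE), a phosphofructokinase. Pkm, the pyruvate kinase, was at -1.27 ± 0.65 (SE). The 5 tested transporters had a median of -2.50, with Slc2a3, the neuronal glucose transporter, at -2.50 ± 0.94 (SE, adjusted p = 0.0806 with edgeR). The 9 tested genes for the entry of pyruvate into mitochondria had a median of -0.61, with Mpc2, part of the pyruvate carrier, at -0.17 ± 0.57 (SE). The 7 tested genes of the glycogen and pentose branches had a median of -2.53, and the 5 regulators a median of -2.27. The regulator Tigar stands under its older symbol 9630033F20Rik in the files and in the plot of log2 differences.

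Outside these lists, 5 genes followed the members most closely. Among 3469 genes with at least 10 reads in at least 24 libraries, the log2 ratio of dendrites over soma was compared with the mean of the members over 16 neurons. Spearman's rho was 0.847 for Hnrnpa2b1, an RNA-binding protein, 0.835 for Impdh1, an enzyme of guanine nucleotide synthesis, 0.826 for Lztr1, 0.824 for Elp2, a subunit of Elongator, and 0.809 for Vdac3, a channel of the outer mitochondrial membrane, against a median of 0.191. All ratios share the depth and scaling of the same libraries.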

How the data were processed

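Dendrite and soma libraries of 16 neurons (32 samples) were analysed. Per the labels and the study's methods, the authors trimmed the reads, aligned them to mm10 with STAR 2.4.0 and counted unique alignments by strand with VERSE on the 3′UTR union of each gene, on 3′ end features of 500 nt (closer ends merged) and on exons. All deposited values are raw counts. Unique mapping loses reads of near-identical copies, and amplification without molecular identifiers inflates the spread.

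Genes seen (1 read or more) in 16 or more samples were fitted with edgeR 4.0.16 (TMM, robust quasi-likelihood test, R 4.3.3, limma 3.58.1) with neuron as a block, and p-values were adjusted by Benjamini-Hochberg over 10880 genes. DESeq2 1.42.0 was an alternative. SE is the log2 difference over the root of F. Ratios, end use and figures used Python 3.11.15, NumPy 2.4.6, pandas 2.3.3, SciPy 1.17.1 and matplotlib 3.10.9. Copies were searched with BLAST 2.17.0 (plus strand). Positions of the ends were not used here, and the numbered features were compared, with the second of the top 2 ends as the share tested. The edgeR fit and the end test were tested on simulated data.

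The compartments were paired by cell of origin. The correlation of their deviations from the compartment means over 10880 genes had a median of 0.0635 (-0.0119 to 0.244, n = 16 neurons). It was above 0.1 in 7 neurons and highest with the cell's own partner in 9, so the pairing is weak in the counts. Every member is named. The 5 genes most like the members follow a ranking by Spearman's rho, and pathway genes not called serve as examples named after their values were seen. The members and lists were chosen with earlier results of these data known. Depth was 646521 to 21169974 3′UTR reads a library. No 2 libraries held identical counts. Exon counts served as an alternative, and spike-ins were left out. Protein sequences were not used here.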

Additional observations from a re-analysis of the deposited data

How the results depend on the processing

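No member was called higher in dendrites under any alternative (the test, 2 other scalings, 2 other filters, exons, equal reads, rounds, no replicate block, each neuron left out), with 9 members tested on exons, where Eno1 did not pass the filter. For calls higher in somas the count was 7 with DESeq2 and 1 (Eno2) with DESeq2's size factors in edgeR, and 0 under the others, with 0 to 0 over the neurons left out in turn. Leaving out both neurons 15 and 16, chosen after seeing the data, also gave 0 and 0. Without the replicate block the counts stayed at 0, and the ratios had p of 0.115, 0.221 and 0.309, so the block changed no call. With the median gene near 0, the log2 differences turned to 0.61 (Gapdh), 0.60 (Aldoa), 0.27 (Eno1), 0.37 (Tpi1), 0.41 (Pgam1), 0.68 (Ldha) and 1.02 (Ldhb). With 3 rounds alone they turned to 0.15 (Aldoa), 0.66 (Pgam1), 0.14 (Ldha) and 0.37 (Ldhb), and at equal reads within a neuron Ldhb was at 0.0031. The number of members above the median gene was 8 of 10 as reported and 1 of 10 without the filter or without the block.

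The ratio of Aldoa to Aldoc ranged from -3.43 to -2.14 over the neurons left out and passed without neuron 9 (-3.43) and with 5 reads added (-2.47), and not in the other alternatives. Eno1 to Eno2 ranged from 0.36 to 0.97, was -1.09 with 3 rounds and 2.52 with exon counts (adjusted p = 0.0320 by the exact permutation test), where Eno1 had 26 reads in all. Ldha to Ldhb ranged from -1.16 to -0.26 and was 0.0702 without neurons 15 and 16. The cause was not tested in any of these. Members under the unadjusted limit of 0.1 for 3′ ends numbered 1 to 4 over the neurons left out. The interaction with rounds called 0 members under each alternative. Depth limits the minor 3′ ends and the zeros of single dendrites.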

Other observations

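Eno1 had 26 reads on exons and 10902 on 3′UTRs over all 32 libraries. In the next most different member, Gapdh, the totals were 72641 on exons and 59631 on 3′UTRs.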
